A study of Caenorhabditis briggsae with 10 samples.

Results

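AF16 is a tropical strain of the nematode Caenorhabditis briggsae, and its transcripts were sequenced from whole worms with and without a stay in extreme cold. Cold worms of AF16 were held at 4 °C for 60 hours (2 libraries) and AF16 control worms were collected without that treatment (2 libraries). Per the labels, all were wild type and were synchronised as L4 larvae, in the middle or late part of that stage, before 24 hours at 20 °C. These 4 of the 10 libraries of the series were chosen by strain and treatment in their labels. The others come from the temperate strain HK104, with 2 cold and 2 control libraries, and from the hybrid of both strains, with 1 cold and 1 control library. No control group was kept as long without cold, so cold and elapsed time cannot be told apart in any cold response below. The labels do not say whether replicates were separate cultures, so p-values measure the spread between libraries, which may be technical.

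Cold slows enzymes and stiffens membranes, and ectothermic animals are known to adjust membrane lipids, protein synthesis and stress defences when they are chilled. In nematodes, growth and egg laying slow or stop well above freezing, and survival depends on the strain and on earlier temperatures. RNA-seq of whole animals reports the share that each transcript takes of the sequenced RNA. A lower share can mean fewer cells of a type or less RNA per cell, and these cannot be told apart here. The deposited tables identify genes by WormBase IDs and do not pair them with symbols, and 0 of 23175 IDs matched the gene table at hand. No function is therefore given for any gene, and tissue markers could not be checked.

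The cold libraries held 15360979 and 18362210 counts and the control libraries 16340862 and 17248152. Of the genes in the table, 13503 passed the filter on low counts, which uses all 8 libraries of both strains. These genes held 99.9% or more of the counts of each AF16 library. Among them, 10800 had at least 10 counts in every AF16 library, 350 reached that level in both cold libraries but not in both controls, and 1419 reached it in both controls but not in both cold libraries. The remaining 934 reached it in neither condition.

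Far more transcripts fell than rose in AF16 after cold, and over all calls the falls had the larger median size. At a false discovery rate (FDR, Benjamini-Hochberg) below 0.05 in edgeR's quasi-likelihood test, 3087 of 13503 genes were called, or 22.9%. Of these, 2711 were lower after cold (20.1% of the genes tested) and 376 were higher (2.78%). Called falls had a median log2 fold change of -2.12, with an interquartile range of -2.82 to -1.56. Called rises had a median of 0.99, with an interquartile range of 0.72 to 2.68. Among all tested genes the response was centred close to no change, with a median log2 fold change of -0.06, quartiles of -1.06 and 0.29, and 53.1% of genes below 0. Its lower tail was the longer: the 5% quantile lay at -2.87 and the 95% quantile at 0.77. Lower genes made up 87.8% of the calls with trimmed-mean (TMM) scaling. When DESeq2 size factors replaced TMM, which moved the median of all genes to 0.11, they made up 70.6% (2302 lower, 958 higher), and with upper-quartile scaling, where that median was -0.15, they made up 91.7%.

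Falls and rises also differed in how their sizes were distributed. Of the called falls, 133 were smaller than 2-fold, 1085 lay between 2- and 4-fold, 936 between 4- and 8-fold, 343 between 8- and 16-fold, and 214 were 16-fold or more. Of the called rises, 189 were smaller than 2-fold, which is 50.3% of them, against 4.91% of the falls. A further 59 rises lay between 2- and 4-fold, 48 between 4- and 8-fold, 39 between 8- and 16-fold, and 41 at 16-fold or more. The smaller rises came from well expressed genes: those under 2-fold had a median level of 78.8 CPM (counts per 1000000, TMM-scaled) after cold and 48.0 CPM in controls. Rises of 16-fold or more came from genes nearly unread in controls, with a median of 2.80 CPM after cold and 0.0600 CPM in controls. Falls of 2- to 4-fold had medians of 3.60 CPM after cold and 10.3 CPM in controls. Fold changes of genes with few counts depend on the prior count of the fit, so the largest size class is the least precise.

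**Figure D1:**
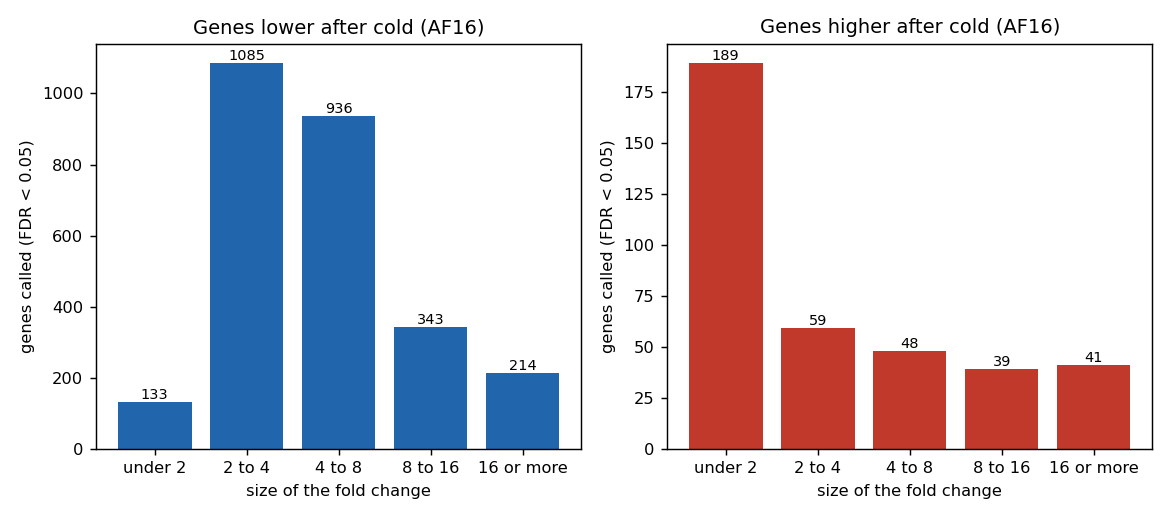
Number of genes called in AF16 (FDR below 0.05) by size of the fold change between cold and control, with genes lower after cold on the left and genes higher after cold on the right; the vertical scales differ. Falls peak at 2- to 4-fold with 1085 genes, and rises are most frequent below 2-fold with 189 genes.

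The transcripts with the largest losses in CPM were 4 of the 5 most abundant ones of control worms. The remaining gene of these 5 was not called (log2 fold change 0.09, FDR = 0.877 by edgeR). WBGene00024796, the most abundant transcript of the controls, had 3272 and 3594 CPM in the cold libraries, against 22729.9 and 22776 CPM in the controls. Each group was tight, and the groups lay far apart (log2 fold change -2.73 ± 0.28, SE, FDR = 0.000134 by edgeR). The second most abundant control transcript had 2550.3 and 2687 CPM after cold, against 20246 and 21534 CPM in controls. The next largest losses were similar in shape, at 1555 and 1486 CPM after cold against 15124 and 14153 CPM in controls, and at 945 and 1157 CPM after cold against 8936 and 9001 CPM in controls. These 4 genes had log2 fold changes between -3.27 and -2.73 and were called. Together they took 0.951% and 0.845% of all counts in the cold libraries, against 6.66% and 6.52% in the controls.

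The fall with the smallest p-value was at WBGene00035751. It had 17.03 and 12.9 CPM after cold, against 519 and 511 CPM in controls (log2 fold change -5.10 ± 0.25, SE, FDR = 1.28e-05 by edgeR). Larger fold changes were found at less abundant genes. Of the 6 largest falls among genes with at least 5 CPM in controls, 4 had at most 3 counts in each cold library. Set against 3 counts per cold library, these were 167-fold, 76.7-fold, 39.2-fold and 33.5-fold lower after cold. The sixth in this order differed most between its libraries, with 2.33 and 8.40 CPM after cold and 224 and 403 CPM in controls.

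No called rise gained as much CPM as each of the 4 abundant transcripts with the largest losses lost. WBGene00042194 was the rise with the smallest p-value. It had 106 and 93.5 CPM after cold, against 2.03 and 2.58 CPM in controls (log2 fold change 5.43 ± 0.28, SE, FDR = 1.28e-05 by edgeR). The largest gain in CPM was at a gene with 493 and 944 CPM after cold and 303 and 426 CPM in controls, so its cold libraries lay further apart than its controls (log2 fold change 0.98 ± 0.31, SE, FDR = 0.0451 by edgeR). That call was lost without the first or second control library or the second cold library, with FDRs of 0.310, 0.0810 and 0.0592. It was also lost with the 4 AF16 libraries alone (FDR = 0.105) and without 3 of the HK104 libraries in turn (FDR = 0.0653 to 0.0770). WBGene00037218 had the second largest gain, with 325 and 271 CPM after cold and 137 and 127 CPM in controls (log2 fold change 1.17 ± 0.21, SE, FDR = 0.00271 by edgeR). Of the 6 largest fold rises among genes with at least 5 CPM after cold, 4 had at most 3 counts in each control library. Set against 3 counts per control library, they were 63.4-fold, 39.0-fold, 35.4-fold and 27.5-fold higher after cold. The remaining genes of the 6 had 47.7 and 27.7 CPM after cold against 0.863 and 0.420 CPM in controls, and 27.2 and 19.4 CPM after cold against 0.185 and 0.840 CPM in controls.

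**Figure D2:**
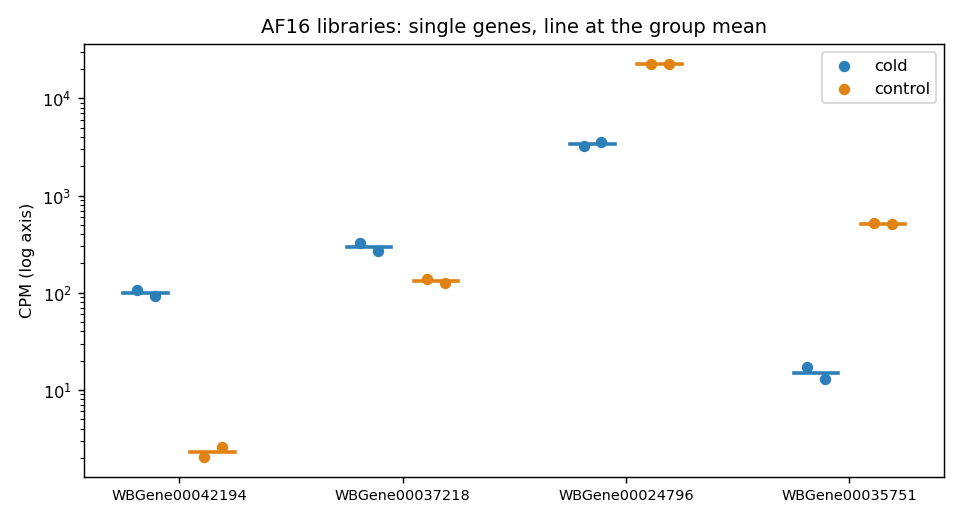
Level of 4 genes in each AF16 library (CPM, log axis), cold libraries in blue and control libraries in orange, with a line at each group's mean. WBGene00042194 and WBGene00037218 were higher after cold, WBGene00024796 and WBGene00035751 lower, and in each gene the 2 cold libraries lay on 1 side of both controls.

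Some transcripts were near the limit of detection in 1 condition. Among the called falls, 205 genes had at most 3 counts in each cold library, and 33 of them had 0 counts in both. Their control levels ranged from 0.242 to 28.7 CPM with a median of 1.13 CPM, so most were weakly expressed. Measured against 3 counts per cold library, they were 1.41-fold to 167-fold lower after cold, with a median bound of 6.56-fold. Among the called rises, 43 genes had at most 3 counts in each control library, 15 of them with 0 counts in both. Their cold levels ranged from 0.258 to 11.6 CPM with a median of 1.12 CPM, and their bounds ranged from 1.41-fold to 63.4-fold with a median of 6.12-fold. With these genes at their bound, the median log2 fold change was -2.09 for called falls and 0.98 for called rises. At this depth a transcript at or under 3 counts is not shown to be absent. The bounds put 3 counts in each library near the floor and take the other group's mean as measured. They are not confidence limits and do not cover counting error or the spread between libraries.

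The counts were spread over more genes after cold. The top 10 genes by abundance, chosen in each library, made up 4.52% and 4.76% of counts in the cold libraries, against 9.95% and 9.52% in the controls. It took 670 and 660 genes to make up 50% of the counts in the cold libraries, against 514 and 561 genes in the controls, and these values did not overlap. The 10 most abundant control genes, ranked by their mean share, took 3.82% and 4.06% after cold and 9.95% and 9.52% in controls, and 5 of them were called lower and 0 higher. Beyond the very top, mostly the same genes were abundant: 92 genes were among the 100 most abundant in both conditions. This overlap does not measure their order. Single libraries shared 83 of their 100 most abundant genes between the cold replicates and 94 between the controls. Of the 100 most abundant control genes, 9 were called lower and 0 higher by edgeR. Their median log2 fold change was -0.01. An exact permutation test of 2 against 2 libraries cannot give a two-sided p below 0.33, so none of these shares was tested.

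The 5 most abundant genes of cold worms were not called, with FDRs of 0.665 to 0.899 by edgeR and log2 fold changes of 0.07 to 0.23. The first of them had 8902 and 13490.4 CPM after cold and 11183 and 9847 CPM in controls. The next had 3223 and 5925 CPM after cold and 4037 and 3818 CPM in controls. In 4 of the 5 the first cold library lay below both controls and the second above both. The exception had 5164 and 2783 CPM after cold and 3379 and 3383 CPM in controls, so there the first cold library was the higher. In HK104 the same 4 genes again had the first cold library below and the second above both controls, as with 8180 and 12508 CPM after cold and 10635 and 10315 CPM in controls at the first gene.

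Losses were concentrated and gains were spread out. Over all genes, 24 genes accounted for 50% of the share of counts lost after cold, and 693 genes for 50% of the share gained. Shares add up to a fixed total, so large losses at few genes raise the shares of the others. The spread of the gains follows in part from this. The genes called lower took 5.12% and 3.51% of the counts in the cold libraries, against 17.4% and 17.1% in the controls. The genes called higher took 2.34% and 1.91% after cold, against 1.09% and 1.11% in controls. Genes without a call took 93.5% of counts after cold and 81.6% in controls, as means over libraries. These shares follow from the calls and are a description. At the same time fewer genes were detected: 12170 and 11440 genes had at least 10 counts in the cold libraries, against 12783 and 12658 in the controls. The difference of the means was -915.5 genes. Thinned to the smallest total it was -948.5, so it was as large at equal depth.

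The response depended on abundance. Tested genes were divided into 5 classes of about equal size by their average level over the 8 parental libraries, from 0.292 to 1.52 CPM in the lowest class, 1.52 to 5.58 in the second, 5.58 to 27.2 in the third, 27.2 to 91.9 in the fourth, and above 92.1 CPM in the highest. The median log2 fold change was -0.66 in the lowest class, -0.75 in the second and -0.38 in the third, against 0.20 in the fourth and 0.18 in the highest, beside -0.06 for all genes tested. Genes that reached 10 counts in both controls only had a median of -2.16 and gave 826 falls. Those that did so in cold only had a median of 0.96 and gave 85 rises. Their direction follows in part from that grouping. With 10 counts in every AF16 library the median was 0.02, with 1850 falls and 279 rises. Class medians were not recomputed under another filter. Calls were most frequent in the second class, at 35.7% of its genes (913 lower, 51 higher), and the third, at 35.0% (873 lower, 71 higher). The lowest class had 20.9% called (503 lower, 61 higher), the fourth 15.1% (267 lower, 140 higher) and the highest 7.70% (155 lower, 53 higher). These shares stand beside 22.9% of all genes tested. The median standard error of the log2 fold change was 0.66 in the lowest class and 0.24 in the highest, and the smallest fold change called was 1.28 in the lowest class and 0.54 in the fourth (log2). Smaller changes could therefore be called among abundant genes than among rare ones.

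**Figure D3:**
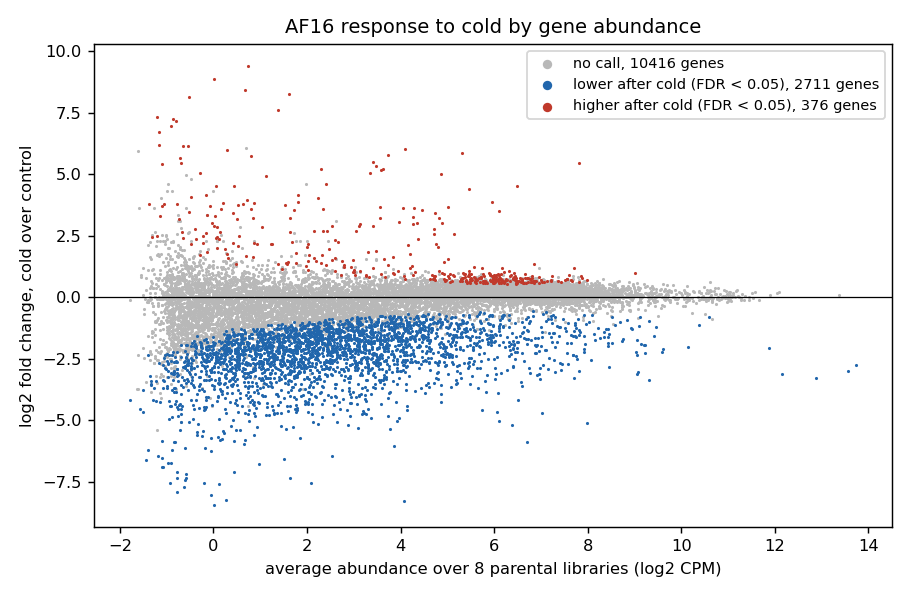
Log2 fold change of AF16 cold over AF16 control for each of the 13503 genes tested, against its average log2 CPM over 8 parental libraries. Genes called lower (2711, blue) are spread over the whole range, rises under 2-fold crowd at middle to high abundance, and the most abundant genes at the far right include the falls described in the text.

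The size of a called change also followed abundance. Called rises had median log2 fold changes of 3.29, 2.26, 1.52, 0.76 and 0.69 from the lowest to the highest class. Called falls had medians of -2.72, -2.18, -1.80, -1.78 and -1.64. In the lowest and second class the rises thus had the larger median size, and in the other classes the falls did. The smallest change that was called also differed between classes, as given above. The second class took 0.770% and 0.519% of counts in the cold libraries against 1.03% and 1.03% in the controls, and the third took 3.41% and 2.66% in the cold libraries against 3.90% and 4.04% in the controls. The fourth class took 16.2% and 15.0% in the cold libraries against 14.0% and 14.2% in the controls. The highest class did not separate the conditions, at 79.3% and 81.6% in the cold libraries and 80.8% and 80.4% in the controls.

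Because the average includes the libraries compared, the classes were also set by other libraries. HK104 controls are not among the AF16 libraries compared, though they share the filter, the scaling and the estimate of spread in the fit. With classes by the level in HK104 controls, the median was -0.35 in the lowest class and 0.15 in the highest. With classes by the AF16 controls these medians were -0.33 and 0.14. The lowest class had a median of -0.97 when the first cold library was left out and of -0.16 when the second was left out, so its size rests on which cold library is used. The highest class had medians of 0.36 and 0.09 in the same order, and of 0.08 with upper-quartile scaling and 0.35 with DESeq2 size factors.

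The 2 cold libraries differed from each other far more than the 2 controls did, and they did so along the same axis of abundance. The median absolute log2 difference between replicates was 0.510 for cold and 0.203 for controls. Cold replicates lay over 2-fold apart at 1910 genes (14.1%), control replicates at 769 genes (5.70%). Matching the libraries gene by gene, 15.9% of the counts would have to move to other genes to turn 1 cold library into the other, against 5.46% between the controls. Between cold and control libraries this value was 16.9% to 18.6%, so the cold libraries differed from each other nearly as much as from the controls in where their counts lay. Abundant genes weigh most in this value. Across genes, log2 CPM correlated with r = 0.979 between the cold libraries and 0.986 between the controls. Between cold and control libraries r was 0.929 to 0.935, so by this measure the cold libraries were closer to each other.

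The difference between the cold libraries had a direction. The first cold library read lower than the second at abundant genes and higher at rare ones. The median log2 difference of the first over the second cold library was 0.35 in the lowest abundance class, 0.32 in the second, 0.19 in the third, -0.14 in the fourth and -0.44 in the highest. The same differences between the controls lay between -0.05 and 0.03. In the highest class 688 of 2701 genes (25.5%) were higher in the first cold library, against 61.2% in the lowest class. Cold libraries of HK104 showed a difference of the same sign in each class, at 0.27, 0.35, 0.30, -0.03 and -0.13 from the lowest to the highest, and within classes the cold replicate differences of AF16 and HK104 correlated across genes with r = 0.121 in the lowest, 0.195, 0.377 and 0.591 in the next 3 and 0.459 in the highest class (a description over the same 4 cold libraries). In the labels, the descriptions of the first AF16 and first HK104 cold library end in a suffix found on no other. The label of the second AF16 cold library gives a lane that differs from that of the first AF16 control, and the remaining AF16 libraries give none. The part of suffix and lane in the result was not tested.

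Each cold library was therefore set against the controls on its own. Relative to the mean of both controls, the first cold library had median log2 ratios of -0.44, -0.60, -0.40, 0.00 and -0.10 from the lowest to the highest class. The second had -0.74, -0.88, -0.44, 0.26 and 0.35. Both libraries were lower than the controls in the 3 lower classes. In the highest class they lay on opposite sides of the controls, on the scale of the 8 libraries fitted together. In fits rescaled without the other cold library, the median of this class was positive for both, at 0.09 for the first cold library alone and 0.36 for the second.

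**Figure D4:**
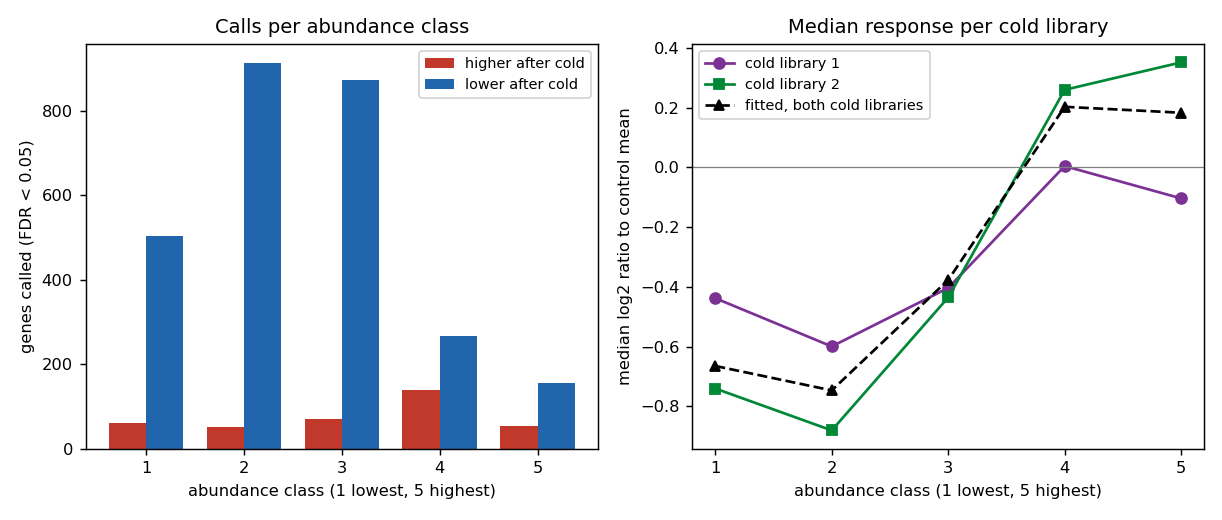
Left, genes called higher and lower in AF16 (FDR below 0.05) in 5 abundance classes; right, the median log2 ratio to the mean of both controls for each cold library and the median fitted log2 fold change. Both cold libraries are below 0 in classes 1 to 3, and in class 5 the first cold library is at -0.10 and the second at 0.35.

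Agreement on single genes followed the same pattern. The log2 ratio of the first cold to the first control library and that of the second cold to the second control library share no library, and correlated across the 13503 genes with r = 0.791. Genes are not independent replicates. Crossing the controls gave r = 0.690. Both ratios had the same sign at 69.1% of genes, and at 64.7% with the controls crossed. The values that follow use the uncrossed ratios only. By class their share of equal signs was 74.2%, 78.9%, 76.9%, 65.1% and 50.5% from the lowest to the highest. In the highest class 1182 genes were lower in the first ratio and higher in the second, against 154 the other way round. Falls repeated better than rises, by an amount that depended on which ratio was used to choose the genes. Of 3000 genes at least 2-fold lower in the first ratio, 2936 (97.9%) were below 0 in the second and 2609 (87.0%) were again at least 2-fold lower. Their median was -1.77 in the first ratio and -2.10 in the second. Of 601 genes at least 2-fold higher in the first ratio, 464 (77.2%) were above 0 in the second and 195 (32.4%) were again at least 2-fold higher. Their median was 1.41 in the first ratio and 0.57 in the second. Chosen by the second ratio, 2609 of 3899 genes at least 2-fold lower were again so in the first. For genes at least 2-fold higher, this held at 195 of 396.

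**Figure D5:**
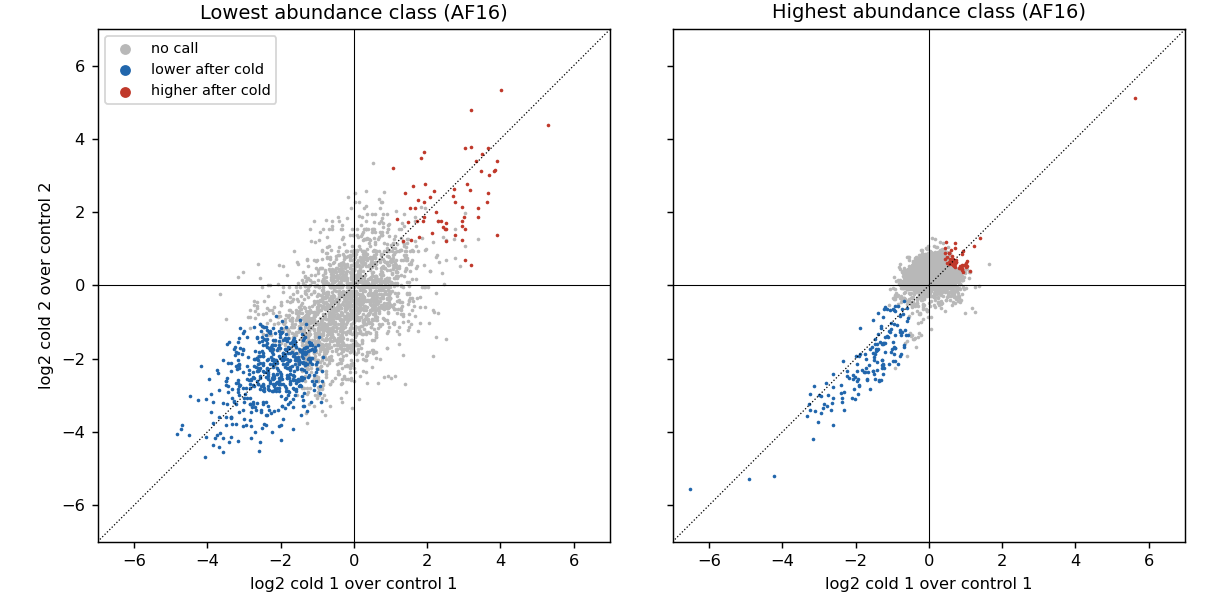
Log2 ratio of cold 2 over control 2 against cold 1 over control 1 for the genes of the lowest (left) and highest (right) abundance class in AF16; blue and red points are genes called lower and higher, grey points have no call, and the dotted line marks equal ratios. Called falls lie below 0 in both ratios in both panels, while grey points of the highest class extend to the upper left, where 1182 genes have opposite signs.

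All 3087 called genes had cold libraries on 1 side of both controls. Groups did not overlap at 7739 of the 13503 genes in all (57.3%), of which 4652 were not called, with 2271 higher and 2381 lower after cold. Among called genes, the cold replicates lay over 2-fold apart at 489 (15.8%) and the control replicates at 95 (3.08%). The second cold library showed the larger falls, with a median log2 ratio to the control mean of -2.19 over the called falls, against -1.79 in the first cold library, and it was the lower cold library at 1861 of 2711 called falls (68.6%). Called rises were larger in the first cold library, with medians of 1.14 in the first and 0.97 in the second.

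Discordant cold libraries were thus not rare among the calls, at the 489 genes counted above. The first examples here had the largest log2 differences between cold replicates among called genes averaging at least 5 CPM after cold. One gene had 12.4 and 3.05 CPM after cold and 44.7 and 47.4 CPM in controls (log2 fold change -2.57 ± 0.53, SE), and another had 10.5 and 2.82 CPM after cold and 20.2 and 18.9 CPM in controls (-1.55 ± 0.48, SE, FDR = 0.0417 by edgeR). The call of the last gene was lost under each of the 3 other scalings, with the 4 AF16 libraries alone, and without either AF16 control or the first HK104 cold library (FDR = 0.0589 to 0.115). It was also lost without the second AF16 cold library, where the log2 fold change was -0.71 (FDR = 0.173). Each was lower than both controls in both cold libraries, by different amounts. In contrast, the fall with the smallest p-value of the fourth abundance class had 4.95 and 4.77 CPM after cold and 116 and 113 CPM in controls (-4.56 ± 0.24, SE). The rise with the smallest p-value of that class had 39.0 and 35.8 CPM after cold and 1.29 and 1.02 CPM in controls (5.01 ± 0.30, SE). In the lowest class the clearest fall had 0.285 and 0.173 CPM after cold and 4.19 and 5.58 CPM in controls, and the clearest rise 3.76 and 3.51 CPM after cold and 0.308 and 0.480 CPM in controls.

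The number of calls depended on single libraries, and the number of rises did so most. Without the first or the second cold library, 1558 and 1239 genes were called higher and 2891 and 1546 lower. Without the first or the second control library, 112 and 118 were called higher and 1934 and 1809 lower. A lone library is assumed in these fits to vary as the other groups do. Lower genes were the majority in each of the 4 fits, at 55.5% to 94.5% of calls. In all of them 1316 of the 2711 falls (48.5%) and 84 of the 376 rises (22.3%) were called in the same direction. The rises called throughout were few at high abundance: 3 of 53 in the highest class and 12 of 140 in the fourth, against 30 of 71 in the third, 24 of 51 in the second and 15 of 61 in the lowest. For falls the counts were 102 of 155 in the highest class, 162 of 267 in the fourth, 484 of 873 in the third, 453 of 913 in the second and 115 of 503 in the lowest.

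The genes called in AF16 mostly moved in the same direction in HK104, which was exposed to the same treatment. HK104 libraries are not among the AF16 libraries compared. They do share the filter, the scaling and the estimate of spread in the fit that gave the AF16 calls. Of the 2711 AF16 falls, 2573 (94.9%) were below 0 in HK104 and 1775 were called lower there. Their AF16 median was -2.12 (log2), beside -1.68 in HK104. Of the 376 rises, 359 (95.5%) were above 0 in HK104 and 216 were called higher, with an AF16 median of 0.99 beside 0.87 in HK104. Among all 13503 genes tested, 82.0% moved in one direction in AF16 and HK104 alike and 21.1% were called in HK104. For AF16 falls of 16-fold or more the AF16 median was -4.65 and the HK104 median -3.66, and for rises of that size these were 5.48 and 3.73 in the same order. These genes were selected for their size in AF16, so this gap is not read as a difference between the strains. The test of the difference itself passed an FDR of 0.05 at 41 of the AF16 falls and 10 of the rises by edgeR, against 0.496% of all genes tested. At 40 of the 41 falls the response was higher in HK104, as it was at 7 of the 10 rises and at 59 of all 67 genes that passed. Falls were chosen for low AF16 values after cold, which favours a higher response in HK104. These 51 genes depended on single libraries: without 1 library of either strain the number ranged from 0 (without the first HK104 cold library, with 453 at an unadjusted p below 0.05) to 72, and with total counts in place of TMM it was 0, where edgeR gave 421 AF16 calls an unadjusted p below 0.05 for the difference. The DESeq2 test gave 117.

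At the 4 abundant transcripts with the largest losses the fall was numerically smaller in HK104, and the difference was not called. WBGene00024796 had 7305 and 6397 CPM in HK104 cold libraries and 22793 and 20688 CPM in HK104 controls. Its log2 fold change was -2.73 in AF16 and -1.67 in HK104, a difference of 1.06 ± 0.37 (SE, HK104 minus AF16, FDR = 0.427 by edgeR). Together these 4 genes took 0.951% and 0.845% of counts in AF16 cold libraries and 1.79% and 1.40% in HK104 cold libraries, with 6.66% and 6.52% in AF16 controls and 6.18% and 5.67% in HK104 controls. WBGene00042194 rose more in HK104, with 909 and 684 CPM after cold and 3.66 and 2.98 CPM in controls, and its difference was called (2.47, HK104 minus AF16, FDR = 0.0228 by edgeR).

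The hybrid gave the same measurement in 1 library per condition, without replicates and so without a test. Its table was read as counts assigned to each allele, which were summed. Among genes with at least 40 assigned reads over both hybrid libraries, 1607 of 1658 AF16 falls (96.9%) were lower after cold in the hybrid and 267 of 274 AF16 rises (97.4%) were higher, beside 76.1% same direction at 7145 genes without a call. The sizes followed those of AF16. Falls of 2- to 4-fold had a median log2 ratio of -1.22 in the hybrid and -1.52 in AF16, those of 4- to 8-fold -2.15 and -2.42, those of 8- to 16-fold -3.08 and -3.34, and those of 16-fold or more -3.81 and -4.56, hybrid first in each pair. Rises under 2-fold had a median of 0.73 in the hybrid and 0.73 in AF16. On reads of the AF16 allele alone, 1586 of the 1658 falls (95.7%) and 262 of the 274 rises (95.6%) kept their direction. WBGene00042194 had 5733 assigned reads in the cold and 62 in the control hybrid library, and WBGene00035751 had 5 and 209 in the same order. These reads are not scaled to library totals. The scaled log2 ratios of cold over control were 6.27 and -5.10. At WBGene00035751 the AF16 allele held 204 of the 209 control reads and 0 of the 5 cold reads, so its fall was measured almost only on that allele.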

How the data were processed

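RNA was measured in whole worms, and the authors deposited raw counts per gene, as whole numbers, for the 8 libraries of AF16 and HK104 and, per allele, for the hybrid. Per the submitters' processing notes, cutadapt, HISAT2 2.2.0, HTSeq 0.11.1 and edgeR were used. Which build, gene models and strand setting were applied is not given in the sources used here, so gene copies and overlapping genes may have been counted in ways not known. The hybrid columns carry strain names and were read as alleles. The authors also deposited a table of log2 fold changes and p-values for the AF16 response. In the authors' deposited table the log2 values differed from those here by at most 4.55e-08, and after adjustment 3056 genes passed 0.05, 3049 of them also called here.

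Here edgeR 4.0.16 (R 4.3.3) was fitted to the 8 parental libraries together, with 1 coefficient per group, TMM scaling, filterByExpr (minimum count 10) and the default quasi-likelihood F test. The Benjamini-Hochberg adjustment ran over all 13503 genes. The SE is the absolute log2 fold change divided by the square root of F. Ratios of single libraries used log2 CPM with a prior count of 2. The tests were run on simulated data, where most 4-fold but few 2-fold changes were recovered. Of the 113 calls made there, 11 were false, a larger share than the FDR limit used for the calls. DESeq2 1.42.0, other scalings, filters and dispersions, and fits without single libraries were alternatives. Totals of 15360979 to 18362210 counts per library limit rare genes most. Among called genes, the text gives the largest fold changes, the largest CPM differences and the smallest p-values, and also the most abundant genes. IDs are printed for 2 rises and 2 falls. The genes and lists were chosen with earlier results of these data known. Planned gene lists and tissue markers need symbols and were not used.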

Additional observations from a re-analysis of the deposited data

Results flagged for a closer look

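For 8 of the 40 genes named by the rule, the edgeR test of the difference found unlike cold responses in AF16 and HK104. Of these, 4 were named for the smallest p-values of that same test, so their passing follows from the choice. Among all genes tested, 67 of 13503 (0.496%) passed it. The difference is given here as HK104 minus AF16 on the log2 scale. Of the 41 AF16 falls with a called difference, that with the smallest p-value had 2.28 and 1.27 CPM after cold and 6.53 and 5.22 CPM in controls in AF16, against 152 and 95.8 CPM after cold and 9.30 and 6.71 CPM in controls in HK104, a difference of 5.68 (FDR = 0.00555). The next had 16.2 and 13.9 CPM after cold and 39.1 and 34.8 CPM in controls in AF16, against 82.8 and 81.5 CPM after cold and 29.0 and 28.2 CPM in controls in HK104, a difference of 2.82 (FDR = 0.00963). Among AF16 rises, the smallest p-values were at genes with differences of 2.85 and 2.32 (FDR = 0.0228 for both). The first had 29.6 and 20.1 CPM after cold and 12.4 and 14.0 CPM in controls in AF16, against 251 and 154 CPM after cold and 17.1 and 12.7 CPM in controls in HK104. Its AF16 rise (log2 fold change 0.91, FDR = 0.0483) was not called with upper-quartile scaling, total counts, a minimum count of 30 or the 4 AF16 libraries alone, nor without either AF16 control, the first AF16 cold library or either HK104 control (FDR = 0.0576 to 0.232). Without the first AF16 cold library it was 0.61. The other had 21.7 and 18.2 CPM after cold and 5.11 and 3.78 CPM in controls in AF16, against 79.0 and 81.2 CPM after cold and 3.61 and 3.56 CPM in controls in HK104.

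The largest AF16 fall among genes with at least 5 CPM in controls had at most 3 counts in each cold library and 32.1 and 25.3 CPM in controls in AF16, against 15.8 and 5.41 CPM after cold and 26.7 and 29.4 CPM in controls in HK104. Its fitted difference of 6.86 (FDR = 0.0180) is no bound. The largest AF16 rise among genes with at least 5 CPM after cold had 3.53 and 6.50 CPM after cold and 0 counts in controls in AF16, against 0.856 and 0.660 CPM after cold and 0.349 and 0.350 CPM in controls in HK104, and its fitted difference of -8.29 (FDR = 0.0377) depends on the prior count. The rise with the smallest p-value in the second abundance class had 13.0 and 15.5 CPM after cold and 0.801 and 0.360 CPM in controls in AF16, against 5.20 and 3.43 CPM after cold and 1.69 and 1.52 CPM in controls in HK104, a difference of -3.18 (FDR = 0.0448). WBGene00042194, described above, had a difference of 2.47 (FDR = 0.0228).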

How the results depend on the processing

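The total of 3087 calls stayed within 1.5 times under each scaling, filter and test tried, from 2670 to 3794, and ranged from 1927 to 4449 without single libraries. Called rises numbered 958 with DESeq2 size factors, 250 with upper-quartile scaling, 575 with total counts, 609 without a filter, 188 with the 4 AF16 libraries alone, 1113 with the DESeq2 test and 112 to 1558 without single libraries. Called falls stayed within 1.5 times, from 2095 with total counts to 3266 with the likelihood ratio test, and ranged from 1546 (without the second cold library) to 2891 without single libraries. The median of all genes was 0.11 with DESeq2 size factors and with the DESeq2 test, and -0.15 with upper-quartile scaling. AF16 calls with a called strain difference (51) numbered 18 with upper-quartile scaling, 0 with total counts, 96 without a filter, 117 with the DESeq2 test, 241 with the likelihood ratio test and 0 to 72 without single libraries. The lowest class had a median of -0.35 with classes by HK104 controls, -0.33 by AF16 controls, and -0.97 to -0.16 without single libraries. Its falls numbered 311 by AF16 controls and 83 to 296 without single libraries, and those of the highest class 233 by AF16 controls. The causes were not tested. Of 35 named called genes, 29 kept call and direction in all 18 alternatives. The 5 most abundant cold genes, none called, changed sign. With upper-quartile scaling 2 of them were at -0.023 and -0.047. Without single libraries their values ranged from -0.049 to 0.37, -0.093 to 0.60, -0.033 to 0.48, -0.27 to 0.80 and -0.20 to 0.44. With a replicate block there were 3474 calls (3080 shared) and 102 strain differences. Replicate differences correlated between groups at 0.00312 to 0.341. The highest value was that of the AF16 and HK104 cold libraries, and AF16 control and cold gave 0.233. The main fit did not pair libraries by replicate number, and whether the numbers mark pairs is not known.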
